A study of Mus musculus with 15 samples.

Results

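The proximal signalling genes of the T cell receptor are the 38 genes whose products form the receptor complex and carry its first signals, together with the enzymes and adaptors that hold those signals back. They were chosen by symbol, and all 38 were found among the 55536 genes of the count table with GENCODE M21 identifiers. By role they comprise 6 receptor and coreceptor chains, 4 kinases, 7 adaptors, 6 enzymes and exchange factors, 3 members of the branch that leads through PKC theta, BCL10 and MALT1 to NF-kB, and 12 negative regulators.

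The receptor of a CD8+ T cell binds peptide but has no enzyme of its own. LCK, brought to the receptor by CD8, phosphorylates the tyrosine motifs of the CD3 and CD247 chains, ZAP70 docks there and phosphorylates the scaffolds LAT and LCP2, and the complex built on them starts calcium, RAS, PKC theta and cytoskeletal signals. Phosphatases, CSK, ubiquitin ligases of the CBL family, proteins of the UBASH3 family and diacylglycerol kinases limit the response. Costimulatory receptors such as OX40 and 41BB add to the response.

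To ask what costimulation adds to antigen, CD8+ T cells were compared from C57BL/6J recipients of transferred OT-I cells, which carry 1 transgenic receptor for the ovalbumin peptide SIINFEKL. Both groups received the peptide. The Ag group also received rat IgG (5 libraries), and the Ag+Costim group received agonist antibodies to OX40 (CD134) and 41BB (CD137) (5 libraries). The study's methods give a Rag1-/- or Rag2-/- background for the OT-I donors, both sexes, ages from young to older adult mice, and a sort for CD8, a congenic marker and the transgenic chains from spleen and lymph nodes. The labels give day 4 for the collection and the methods a slightly shorter time. The receptor is fixed by the transgene, so every cell saw the peptide with the same receptor. The study describes these libraries as biological replicates and counts mice in its groups, while the labels tie no animal to a library, so the p-values measure the spread between these libraries. The 5 Naive libraries were not analysed here, so all comparisons below are within primed cells.

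Levels are given as CPM, estimated counts scaled to 1 common total in each library, after TMM scaling, a correction for the makeup of each library. The 5 Ag libraries held 59.6 to 449 M (mega) estimated counts and the 5 Ag+Costim libraries 332 to 639 M. Genes with a count numbered 48058, 51778 and 40441 in Ag 1, Ag 3 and Ag 4. They numbered 21779 and 20714 in Ag 2 and Ag 5, and 28727 to 30340 in Ag+Costim. Ag libraries differed among themselves more than Ag+Costim libraries did. The SD was larger in Ag for 37 of the 38 members and for 94.1% of the 8626 genes whose mean was at least 10 CPM. Ag 3, the library with the fewest counts, was the lowest of the 10 libraries for 25 members, against 24.8% of genes at 10 CPM or more. Its summed level of 5 erythroid markers was 1102 CPM, against 3.80 to 125 CPM in the other libraries, and 5 of the 6 B cell markers were highest there. The B cell sum was 658 to 1318 CPM in Ag and 569 to 857 CPM in Ag+Costim, and the myeloid sum of 6 genes 35.3 to 120.5 and 64.8 to 150.3 CPM. No marker of these lists was at 0 in all libraries. In Ag 1 and Ag 4 the summed level of 17 cell cycle genes was 1382 and 1498 CPM, against 6467 to 11068 CPM in the other Ag libraries and 10365 to 13050.1 CPM in Ag+Costim. The CD4 T cell sum of 3 genes was 1.21 to 16.27 CPM in Ag and 2.43 to 5.77 CPM in Ag+Costim. Cd4 was at most 5.07 CPM in any library, whereas Zbtb7b reached 8.87 and 14.97 CPM in Ag 1 and Ag 4. The NK cell sum of 2 genes was 2.09 to 16.41 CPM in Ag and 0.473 to 2.16 CPM in Ag+Costim. Its gene Ncr1 was lower in Ag+Costim without overlap, at 0 to 0.885 CPM against 1.14 to 6.04 CPM in Ag. The CD8 chains Cd8a and Cd8b1 and the T cell chain Cd3e were above 340 CPM in all 10 libraries. In bulk RNA, fewer cells of a type and less RNA per cell cannot be told apart, and the part of these library differences in the results below was not tested.

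All 38 members were transcribed in both groups, at very unequal levels. On a per-length scale (transcript counts per kilobase, scaled to 1 common total in each library), the highest were Cd8b1 at 1586 ± 327 in Ag and 1319 ± 111 in Ag+Costim (mean ± SD, n = 5 each) and Lck at 1361 ± 319 and 1329 ± 45.6. Those neighbours in the order overlapped within their SD in both groups. Cd3g, Cd3e and Cd3d came next with means between 516 and 1223. By the mean over all 10 libraries Skap1, Lat and Ptpn6 followed, with group means between 370.5 and 539.9, and in Ag alone Dgka and Cd8a were at 397 and 375, above Ptpn6. At the other end, the RAS exchange factors Sos1 and Sos2 had per-length means of 0.93 to 3.71, and they were the only members with a mean under 10 CPM.

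Fold changes of the members between the groups were small, with log2 values (Ag+Costim minus Ag) between -0.50 and 0.66. In edgeR's quasi-likelihood test over 24262 genes, 0 of the 38 members passed a BH-adjusted p of 0.05, the same share (0.0%) as over all genes tested. With TMM, 4 members had an unadjusted p under 0.05, all higher in Ag+Costim (Was, Themis, Ubash3a and Vav1). Over all genes tested 18.6% had such a p, 7.89% with a higher level in Ag+Costim (20.2% of genes at 10 CPM or more). DESeq2 called 1 member, Vav1, as higher in Ag+Costim. It called 12.5% of all genes it tested, and 778 of the 49567 as higher. A fit with a quality weight for each library (limma voom) called 18 members, 12 of them higher in Ag+Costim. It called 52.2% of all genes, and 6254 of the 24262 as higher. That fit gave Ag 1 and Ag 4 weights of 1.42 and 2.00 and Ag 2 and Ag 5 weights of 0.0986 and 0.0656.

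In 5 members all Ag+Costim libraries exceeded all Ag libraries, namely Vav1, Lcp2, Ubash3a, Was and Themis, and in 0 members all were lower. Over all genes tested the groups did not overlap in 4.48% with higher and 1.13% with lower levels in Ag+Costim. Among genes at 10 CPM or more, a level reached by 36 of the members, 11.3% were higher without overlap, so that the members' share of 13.2% was near that of genes at a like level. The median log2 fold change (Ag+Costim minus Ag) of the members was 0.11, beside 0.24 for genes at 10 CPM or more and -0.32 for all genes tested. The scaling set part of this. With total counts the median of genes at 10 CPM or more was -0.0025, that of the members -0.20, and 0 members were without overlap, against 7.26% of genes at 10 CPM or more higher without overlap. Positive fold changes were found in 24 members with TMM, 15 with DESeq2 size factors, 11 with upper quartile factors and 9 with total counts, whereas keeping genes with low counts gave 33.

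**Figure D1:**
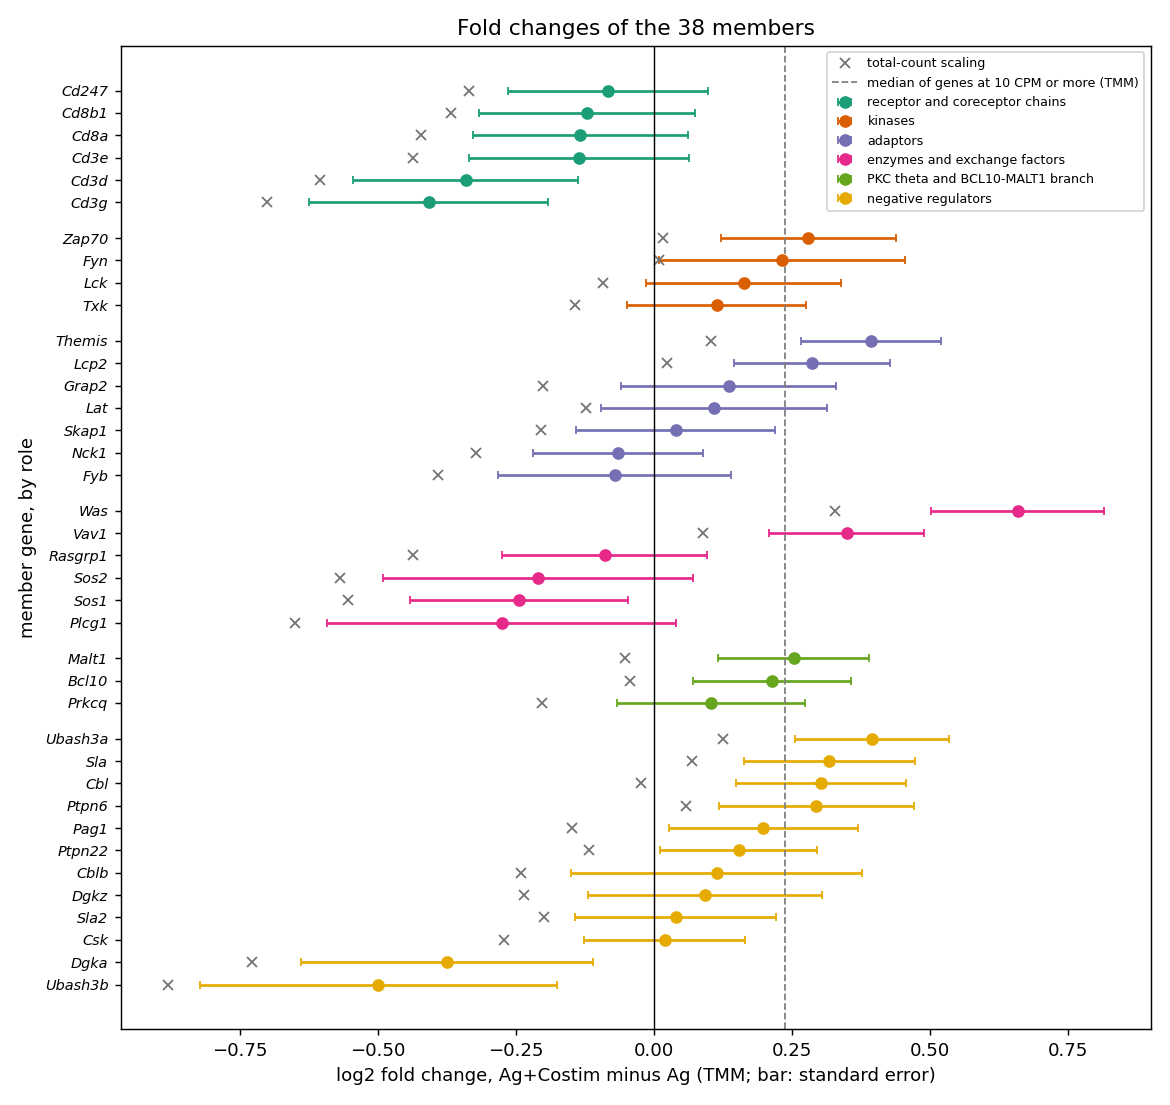
Log2 fold change of each member (Ag+Costim minus Ag) by role, with TMM scaling (circles, bar = standard error of the edgeR fit) and with total-count scaling (crosses); the dashed line is the median of genes at 10 CPM or more under TMM, 0.24. All 6 receptor and coreceptor chains lie left of 0 under both scalings, Was lies farthest right at 0.66, and Ubash3b farthest left at -0.50.

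The chains of the receptor complex and its coreceptor had slightly lower mean levels in Ag+Costim, and the groups overlapped for each chain. With TMM all 6 log2 fold changes were below 0, between -0.41 and -0.08, with a median of -0.13, and 0 of 6 passed the test or were without overlap. They stayed below 0 with DESeq2 size factors, total counts and upper quartile factors, whereas 4 of 6 were above 0 when genes with low counts were kept in the scaling. An unadjusted edgeR p under 0.05 was found in 0 of 6 with TMM. With DESeq2 size factors, total counts and upper quartile factors it was found in 2, 4 and 3, against 4811, 5465 and 5103 of all 24262 genes. Of those genes 1357, 1117 and 804 were higher in Ag+Costim, whereas the chains were lower. Genes at 10 CPM or more were not counted in this way under these scalings. With TMM 1989 of the 8626 had such a p, 1746 of them higher. Weighted voom called Cd3d and Cd3g as lower (BH-adjusted p = 0.034 and 0.0074). Cd3e, a signalling chain present in every receptor complex, was at 863, 704, 495, 1043 and 837 CPM in Ag 1 to Ag 5 and at 762, 708, 794, 608 and 716 CPM in Ag+Costim 1 to 5 (log2 fold change -0.14, SE 0.20). The lowest and the 3 highest values were all from Ag libraries, and the Ag+Costim values lay inside their range. Cd8a, which binds MHC class I and LCK, was at 633, 554, 346, 679.7 and 650.3 CPM in Ag and at 501, 524, 617, 477 and 491 CPM in Ag+Costim (log2 fold change -0.13, SE 0.19). Its partner chain Cd8b1 was at 1306, 1584, 896, 1354 and 1824 CPM in Ag and at 1300.4, 1291, 1443, 1200.1 and 1169 CPM in Ag+Costim (log2 fold change -0.12, SE 0.20). Both pairs of groups overlapped, and Ag 3 was the lowest library for Cd3e, Cd8a and Cd8b1 alike. The other CD3 chains Cd3d and Cd3g had means of 688 ± 177 and 715 ± 200.2 CPM in Ag against 543 ± 51.6 and 539 ± 45.4 CPM in Ag+Costim (mean ± SD, n = 5 each). For both genes 4 of 5 Ag libraries lay above every Ag+Costim library, and Ag 3 lay below all of them. Cd247, the zeta chain with the most tyrosine motifs, ranged from 169 to 327 CPM. The summed level of the 6 chains was 2689.7 CPM in Ag 3, 4539 to 5292 CPM in the other Ag libraries and 3477 to 4339.8 CPM in Ag+Costim.

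**Figure D2:**
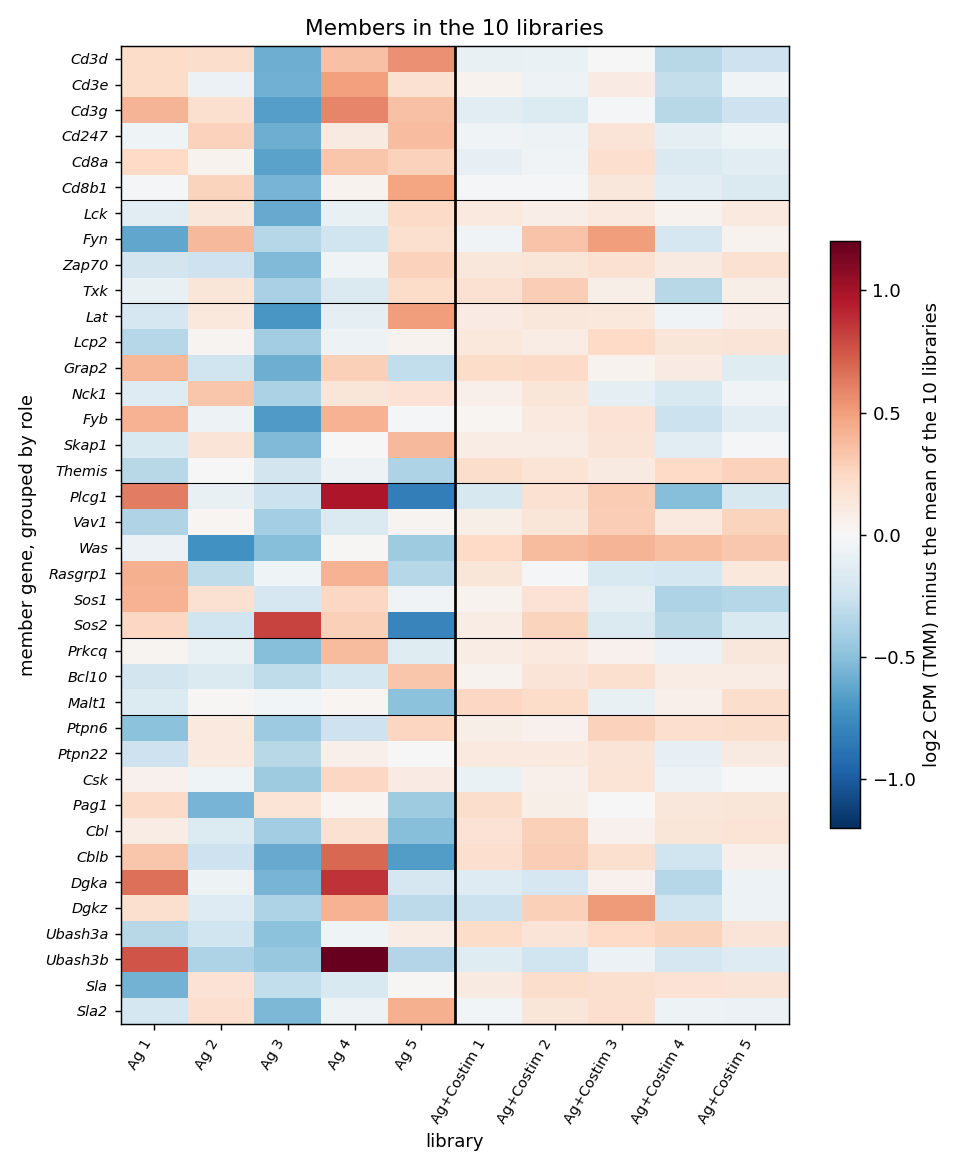
Level of each member in each of the 10 libraries as log2 CPM (TMM) minus that gene's mean over the libraries, grouped by role with horizontal lines; red is above and blue below the mean, and the vertical line parts Ag from Ag+Costim. Ag 3 is blue for most members, Ag 1 and Ag 4 are red for Dgka, Ubash3b, Plcg1 and Cblb, and the Ag+Costim columns vary less.

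The 4 kinases had log2 fold changes between 0.11 and 0.28, with a median of 0.20, near the 0.24 of genes at 10 CPM or more, and 0 of 4 passed the test or were without overlap. Lck, the kinase that starts the cascade, was at 1532, 1854, 1111, 1585 and 1977 CPM in Ag and at 1829, 1790.3, 1829.9, 1738 and 1831 CPM in Ag+Costim. With means of 1612 ± 335 and 1804 ± 40.6 CPM in that order (SD, n = 5 each), the difference of the means was smaller than the spread in Ag. Zap70, which reads the phosphorylated chains, was at 191, 187, 155, 217 and 271 CPM in Ag and at 245, 247, 254, 241 and 252.3 CPM in Ag+Costim (log2 fold change 0.28, SE 0.16). Here 4 of 5 Ag libraries lay below all Ag+Costim libraries and Ag 5 lay above them. Txk, a TEC family kinase that acts on PLCG1, ranged from 71.9 to 115 CPM.

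Fyn, the second SRC family kinase of the receptor (ENSMUSG00000019843.14, chr10:39368855-39565381 in mm10, plus strand), was at 245, 493, 298, 319 and 430.5 CPM in Ag and at 366, 478, 535, 329 and 388 CPM in Ag+Costim. The groups overlapped (log2 fold change 0.23, SE 0.22), with Ag 1 lowest and Ag+Costim 3 highest. Fyn transcripts carry either of a pair of alternative exons, 7A or 7B, which encode the end of the linker and the start of the kinase domain. The form with 7B, FynT, is known from haematopoietic cells and the form with 7A, FynB, from brain. Exon 7A spans 165 bases (chr10:39529437-39529601) and exon 7B 156 bases (chr10:39529919-39530074), both in mm10 on the plus strand, both coding throughout and both in frame. They are shown because the deposited values disagree about which of them these cells used, and capitals mark the 4 runs of at least 5 bases in which they are identical when aligned (105 of 180 alignment columns are identical, 58.3%).
Fyn exon 7A: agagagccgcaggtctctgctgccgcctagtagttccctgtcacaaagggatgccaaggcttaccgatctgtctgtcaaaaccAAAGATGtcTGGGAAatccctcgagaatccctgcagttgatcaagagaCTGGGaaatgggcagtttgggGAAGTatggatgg
Fyn exon 7B: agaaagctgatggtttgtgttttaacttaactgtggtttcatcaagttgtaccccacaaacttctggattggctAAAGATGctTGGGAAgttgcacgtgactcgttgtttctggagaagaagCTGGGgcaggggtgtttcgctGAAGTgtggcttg
The sequences are those of the GENCODE M21 transcripts Fyn-202 and Fyn-201.

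No difference between the groups was detected in either exon. From the transcript counts, inclusion of 7A was 46.2, 30.2, 34.7, 53.6 and 38.1% in Ag and 40.6, 35.3, 42.9, 52.2 and 41.6% in Ag+Costim. Its means of 40.5 ± 9.37% and 42.5 ± 6.14% differed by less than the SD of either group (n = 5 per group, two-sided exact permutation test p = 0.706). Inclusion of 7B was 48.7, 56.3, 52.6, 45.5 and 53.5% in Ag and 50.5, 55.5, 48.5, 46.8 and 57.0% in Ag+Costim, with means of 51.3 ± 4.25% and 51.7 ± 4.41% (n = 5 per group, two-sided exact permutation test p = 0.921). Percent spliced in (PSI), which the authors computed from the reads with Whippet and deposited as 1 pooled value per group, gave 2.27% for 7A with antigen alone and 2.32% with costimulation. For 7B it was 93.5% and 94.1%. The transcript counts thus put FynB at about the level of FynT, whereas PSI put nearly all Fyn transcripts in the FynT form, in both groups alike. Fyn-201, the leading 7B transcript, made up 48.0 ± 5.18% of Fyn counts in Ag and 47.7 ± 5.44% in Ag+Costim, and Fyn-202, the 7A transcript, held 40.4 ± 9.32% and 42.5 ± 6.12% (mean ± SD, n = 5 each). Which of the estimates is nearer to the cells' RNA was not tested. Over the 34 alternative exons of members that were in both the annotation and the PSI table, the estimates differed by more than 10 percentage points in both groups in 6 (both Fyn exons and 1 each in Cd8a, Dgka, Fyb and Vav1) and by more than 40 points in 2.

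The adaptors were mixed, with 5 of 7 log2 fold changes above 0 under TMM (2 of 7 under each of the other 3 scalings, 7 of 7 when genes with low counts were kept) and a median of 0.11. None passed the test, and Lcp2 and Themis were without overlap. Lat, the membrane scaffold that ZAP70 phosphorylates, was at 333, 418, 236, 354 and 543 CPM in Ag and at 410.5, 423, 419, 372 and 406 CPM in Ag+Costim. The Ag libraries spanned more than the Ag+Costim ones on both sides (log2 fold change 0.11, SE 0.20). Lcp2, the scaffold that joins LAT to VAV1 (ENSMUSG00000002699.13, chr11:34046920-34092295), was at 271, 353, 258, 330.2 and 356 CPM in Ag and at 377, 367, 406, 381 and 383 CPM in Ag+Costim. Every Ag+Costim library was above every Ag library, with 356 and 367 CPM as the nearest values (log2 fold change 0.29, SE 0.14, BH-adjusted p = 0.283 in edgeR), and with total counts the groups overlapped. Themis, a receptor-proximal regulator that is needed in thymocyte development (ENSMUSG00000049109.15, chr10:28668360-28883818), was at 166, 209, 179.9, 201 and 162 CPM in Ag and at 242, 235, 227, 247 and 254 CPM in Ag+Costim. Its means of 184 ± 20.7 and 241 ± 10.5 CPM (mean ± SD, n = 5 each) differed by more than the SD of either group. The log2 fold change was 0.39 (SE 0.13, BH-adjusted p = 0.228 in edgeR) and 0.10 with total counts, where the groups overlapped. Grap2, which bridges LAT and LCP2, Nck1, which links LCP2 to the cytoskeleton, and Skap1, a partner of FYB in integrin activation, overlapped between the groups, with log2 fold changes of 0.14, -0.06 and 0.04.

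Fyb, the adaptor that couples the receptor to integrins (ENSMUSG00000022148.16, chr15:6522853-6663313), was at 297, 213, 138, 297 and 218 CPM in Ag and at 226, 241, 250.3, 185 and 204 CPM in Ag+Costim. Ag 1 and Ag 4 were the highest libraries and Ag 3 the lowest, and the Ag+Costim values lay between them (log2 fold change -0.07, SE 0.21). A coding exon of Fyb, of 138 bases (chr15:6644762-6644899, plus strand), is alternative. It is also an exon for which the deposited measures disagree, and its sequence (GENCODE M21 transcript Fyb-201, in frame, no base marked) reads as follows.
Fyb alternative exon: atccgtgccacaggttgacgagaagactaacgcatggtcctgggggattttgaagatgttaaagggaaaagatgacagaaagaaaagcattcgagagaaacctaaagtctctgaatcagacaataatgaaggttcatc
From the transcript counts its inclusion lay between 98.9 and 99.3% in all 10 libraries, with means of 99.1 ± 0.16% in Ag and 99.1 ± 0.055% in Ag+Costim (n = 5 per group, two-sided exact permutation test p = 0.349). Its PSI came to 6.63% in Ag and 8.82% in Ag+Costim. The only annotated transcript that skips this exon is Fyb-208, of 662 bases, whereas Fyb-201, of 2669 bases, holds the exon and took 84.1 ± 1.41% of Fyb counts in Ag and 84.8 ± 1.11% in Ag+Costim (mean ± SD, n = 5 each).

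**Figure D3:**
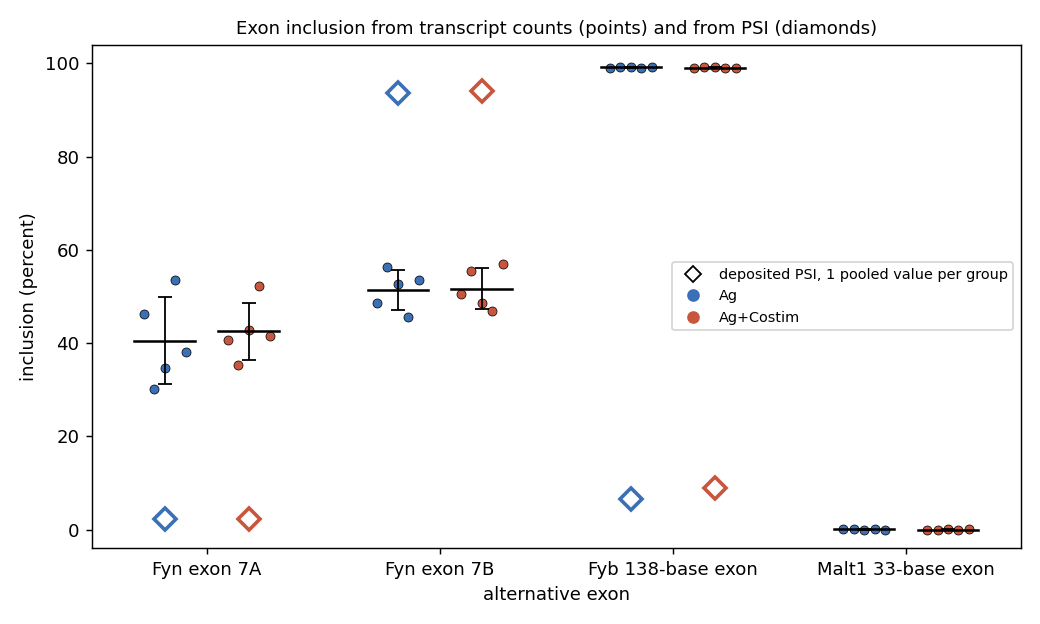
Inclusion in percent of 4 alternative exons of Fyn, Fyb and Malt1, from transcript counts in each library (points; line and bar = mean and SD, n = 5 per group) and from the deposited PSI, 1 pooled value per group (diamonds; none for the Malt1 exon). The groups overlap for all 4 exons, while counts and PSI lie far apart for both Fyn exons and the Fyb exon.

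Among the enzymes and exchange factors, Vav1 and Was were higher in Ag+Costim without overlap and the other 4 had log2 fold changes below 0 (1 of 6 when genes with low counts were kept). Was, the actin regulator that VAV1 and NCK1 bring to the receptor (ENSMUSG00000031165.6, chrX:8081453-8090498), had the largest fold change of the members. It was at 58.8, 37.2, 43.1, 62.3 and 45.8 CPM in Ag and at 72.5, 80.0, 81.9, 79.0 and 76.8 CPM in Ag+Costim, means of 49.4 ± 10.7 and 78.0 ± 3.60 CPM (mean ± SD, n = 5 each). The Ag+Costim libraries lay close together and all above the Ag libraries (log2 fold change 0.66, SE 0.16, BH-adjusted p = 0.154 in edgeR). With total counts the log2 fold change was 0.33 and the groups overlapped. Vav1, the exchange factor for RAC that binds phosphorylated LCP2 (ENSMUSG00000034116.17, chr17:57279100-57328031), was at 199, 260.3, 194, 227 and 262 CPM in Ag and at 269, 284, 316, 278 and 309 CPM in Ag+Costim. Its groups did not overlap with TMM or DESeq2 size factors and overlapped with total counts (log2 fold change 0.35, SE 0.14, BH-adjusted p = 0.259 in edgeR and 0.049 in DESeq2). Plcg1, the phospholipase that makes the second messengers of the receptor, was picked after its values were seen and was at 92.1, 56.7, 50.4, 118 and 34.0 CPM in Ag and at 52.7, 68.2, 74.6, 42.2 and 52.6 CPM in Ag+Costim. Ag 4 and Ag 1 were its highest libraries and Ag 5 its lowest. Rasgrp1, the exchange factor for RAS that diacylglycerol recruits, was likewise highest in Ag 1 and Ag 4, at 134 and 133 CPM, and ranged from 78.9 to 111 CPM in the other 8. Sos1 and Sos2, exchange factors for RAS that bind GRB2, ranged from 4.22 to 7.26 and from 3.61 to 11.0 CPM.

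**Figure D4:**
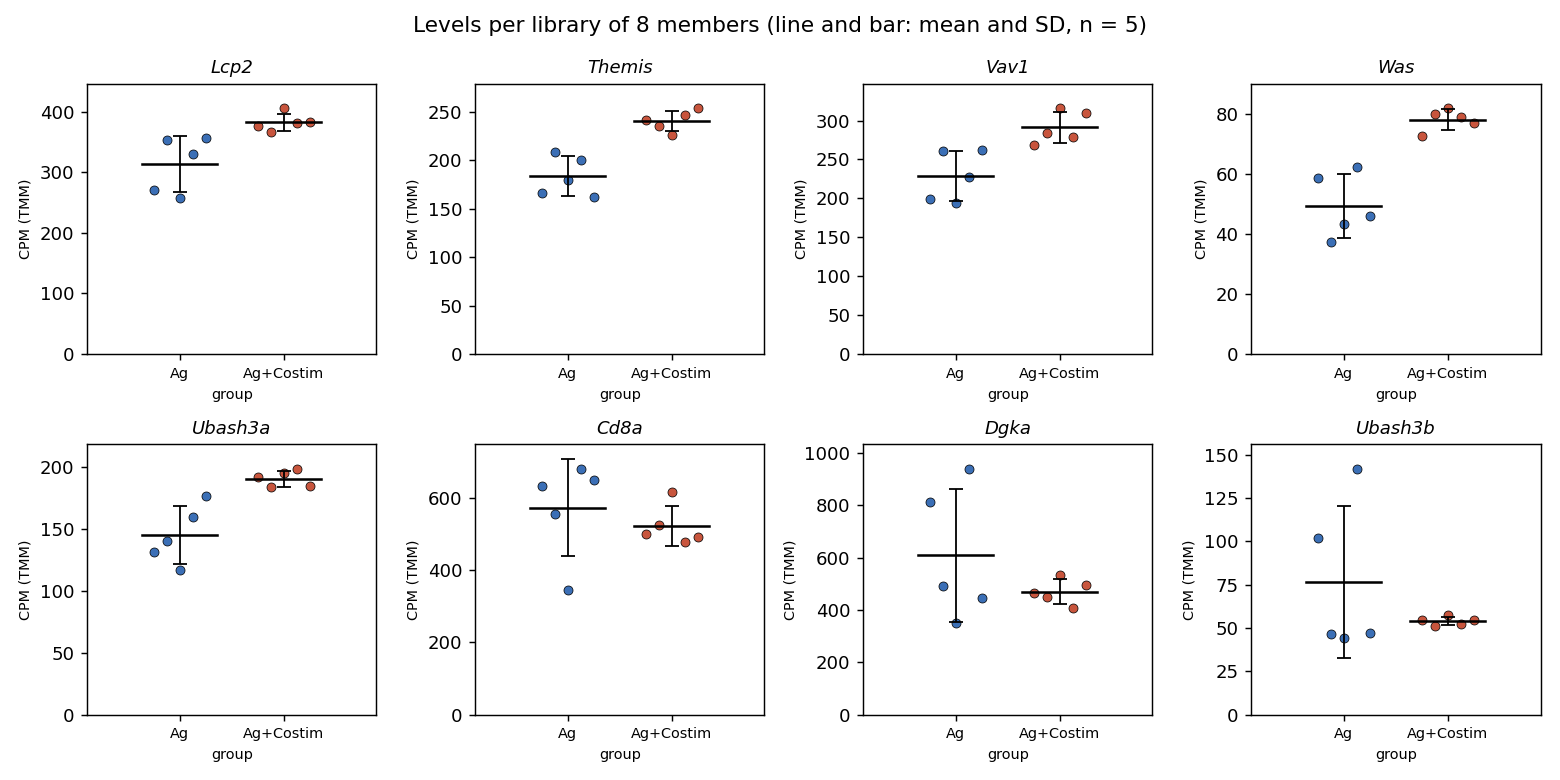
Level in CPM (TMM) of 8 members in each library by group (points; line and bar = mean and SD, n = 5 per group); each panel has its own axis from 0. Lcp2, Themis, Vav1, Was and Ubash3a are higher in Ag+Costim without overlap, Cd8a overlaps, and Dgka and Ubash3b have a pair of high Ag libraries, Ag 1 and Ag 4.

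The 3 genes of the branch to NF-kB had log2 fold changes between 0.10 and 0.25 with TMM and all below 0 with total counts, and 0 of 3 passed the test. Malt1, the paracaspase of the complex (ENSMUSG00000032688.9, chromosome 18), was at 48.8, 54.9, 53.4, 55.4 and 38.6 CPM in Ag and at 64.8, 63.6, 51.2, 56.7 and 63.0 CPM in Ag+Costim. Its groups overlapped through Ag+Costim 3 (log2 fold change 0.25, SE 0.14). Bcl10, its adaptor, and Prkcq, the kinase PKC theta that starts this branch, overlapped as well, with ranges of 61.2 to 95.2 and 289 to 534 CPM.

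Within Malt1, the share of the main coding transcript was higher and that of a pair of retained-intron transcripts lower in Ag+Costim, without overlap. Malt1-201, the protein-coding transcript, made up 74.4, 88.7, 71.9, 73.6 and 89.1% of Malt1 counts in Ag and 89.9, 91.0, 90.6, 91.8 and 90.5% in Ag+Costim. Every Ag+Costim library was above every Ag library, and Ag 2 and Ag 5 were the Ag libraries nearest to them. Ag 2 and Ag 5 also had the fewest genes with a count. Whether that library difference has a part in the Malt1 shares was not tested. Malt1-213, which retains an intron, held 3.90, 2.96, 8.28, 4.58 and 7.25% in Ag and 1.80, 2.12, 2.14, 0.80 and 1.53% in Ag+Costim. Malt1-209, which also retains an intron, had means of 0.86 ± 0.28% and 0.20 ± 0.068% (mean ± SD, n = 5 each). Malt1 did not pass the usage test, and 2.49% of all transcripts tested were without overlap. The known alternative coding exon of 33 bases was present in 0 to 0.050% of the counts of transcripts that hold or span it, in every library of both groups. No PSI row of this exon was used here, so its low inclusion rests on transcript counts alone. For both Fyn exons and the Fyb exon those counts lay far from PSI. The 14 PSI rows of Malt1 were core exons with a PSI between 0.945 and 0.997 in Ag and between 0.973 and 0.999 in Ag+Costim, with differences of at most 0.0486.

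Of the 12 negative regulators, 10 had log2 fold changes above 0 with TMM, against 6 with DESeq2 size factors, 4 with upper quartile factors, 3 with total counts and 10 when genes with low counts were kept. None passed the test and Ubash3a was without overlap. Ubash3a, a ubiquitin-binding suppressor of receptor signalling (ENSMUSG00000042345.15, chr17:31207873-31246892), was at 131, 139.7, 117, 159.8 and 176 CPM in Ag and at 192, 184, 195, 198 and 184 CPM in Ag+Costim. The Ag+Costim libraries, with a mean of 190.4 ± 6.48 CPM (SD, n = 5), were all above the Ag libraries. Its log2 fold change was 0.40 (SE 0.14, BH-adjusted p = 0.241 in edgeR) and 0.13 with total counts, where the groups overlapped. Sla, an adaptor that promotes loss of receptor chains from the surface, was at 166, 277, 200.4, 216 and 248 CPM in Ag and at 265, 285, 281, 278 and 273 CPM in Ag+Costim. Only Ag 2 reached into the range of its Ag+Costim libraries (log2 fold change 0.32, SE 0.15). Its relative Sla2 ranged from 105 to 203 CPM with overlap.

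Ubash3b and Dgka, picked after their values were seen, varied widely among the Ag libraries. Ubash3b, the phosphatase paralog of Ubash3a, was at 102, 46.7, 44.2, 142 and 47.3 CPM in Ag and at 54.7, 51.2, 57.6, 52.5 and 54.4 CPM in Ag+Costim (log2 fold change -0.50, SE 0.32). Ag 1 and Ag 4 were high and the other 3 Ag libraries lay below all Ag+Costim libraries. Dgka, which removes diacylglycerol and so limits RASGRP1, was at 814, 493, 350.1, 939 and 447 CPM in Ag and at 464, 449, 534, 406 and 494 CPM in Ag+Costim. Again Ag 1 and Ag 4 stood above the other 8 libraries, which overlapped. The levels of Ag 1 and Ag 4 were both above those of the other Ag libraries in 14 of the 38 members, against 19.1% of genes at 10 CPM or more. These are the libraries with the low cell cycle sums given above, and whether that has a part in their Dgka and Ubash3b levels was not tested. With Ag 1 and Ag 4 left out, an alternative added after seeing the data, 0 members passed the test and 10 were higher without overlap, against 17.7% of genes at 10 CPM or more and 6.92% of all genes in that fit. With Ag 2 and Ag 5 left out instead, 15 of the 38 members passed and all 15 were higher in Ag+Costim. That fit called 16322 of 33480 genes, and 17.9% of the 33480 as higher. Among genes at 10 CPM or more it called 5727 of 8699, in either direction. In that fit 13 members were higher without overlap, against 61.1% of genes at 10 CPM or more.

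The remaining negative regulators overlapped between the groups. Ptpn6, a phosphatase that acts on LCK and ZAP70, and Ptpn22, a phosphatase that works with CSK, had log2 fold changes of 0.29 and 0.15. Cbl and Cblb, ubiquitin ligases of receptor components, had 0.30 and 0.11. Csk, which phosphorylates the inhibitory tyrosine of LCK, and Pag1, its membrane anchor, had 0.02 and 0.20, and Dgkz, the second diacylglycerol kinase, had 0.09. These values were below the 0.24 of genes at 10 CPM or more in 5 of the 7 genes.

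Transcript usage was tested over 10441 genes with at least 2 testable transcripts, 36 members among them. A change (BH-adjusted gene-level p under 0.05 and a share moved by over 10 percentage points) was called in 1 member, Csk, against 0.297% of all genes. Csk-201, the main coding transcript, held 70.7, 94.3, 88.6, 70.7 and 97.9% of Csk counts in Ag and 97.7, 97.6, 96.4, 97.0 and 97.2% in Ag+Costim. Csk-204, which has the same coding span and differs in its upstream noncoding exons, held 22.9, 0.087, 1.23, 26.9 and 0% and 0.037, 0.75, 0.93, 0.068 and 0.26%. The difference sat in Ag 1 and Ag 4, and the other 3 Ag libraries had shares of Csk-204 of at most 1.23%. The call (BH-adjusted p = 0.0453 in edgeR) was lost without Ag 1 (BH-adjusted p = 0.106) or Ag 4 (0.147), as well as without Ag+Costim 1, 2, 4 or 5, and limma's usage test did not make it.

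The largest share differences among the other members at 10 CPM or more came with wide spreads. Txk-202 went from 23.3, 46.4, 37.3, 11.4 and 13.9% in Ag to 5.68, 11.6, 4.89, 1.33 and 7.79% in Ag+Costim, where only Ag 4 overlapped the Ag+Costim range. Malt1-201 is given above, and Pag1-201 was at 9.36, 17.6, 17.8, 8.61 and 0% in Ag and at 10.4, 33.4, 9.91, 30.8 and 21.1% in Ag+Costim with overlap. Sos2-206, picked after its values were seen and from a gene under 10 CPM, ranged from 0 to 62.6% in Ag and from 16.9 to 75.0% in Ag+Costim. Of 181 member transcripts tested, 7 in 5 genes were without overlap, 2 of them higher in Ag+Costim (Malt1-201 and Dgkz-212), against 2.49% of all transcripts tested. Dgkz-212, annotated as a target of nonsense-mediated decay, held 0.22, 0, 0.63, 0.57 and 0% of Dgkz counts in Ag and 3.65, 6.32, 1.46, 6.01 and 1.43% in Ag+Costim.

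**Figure D5:**
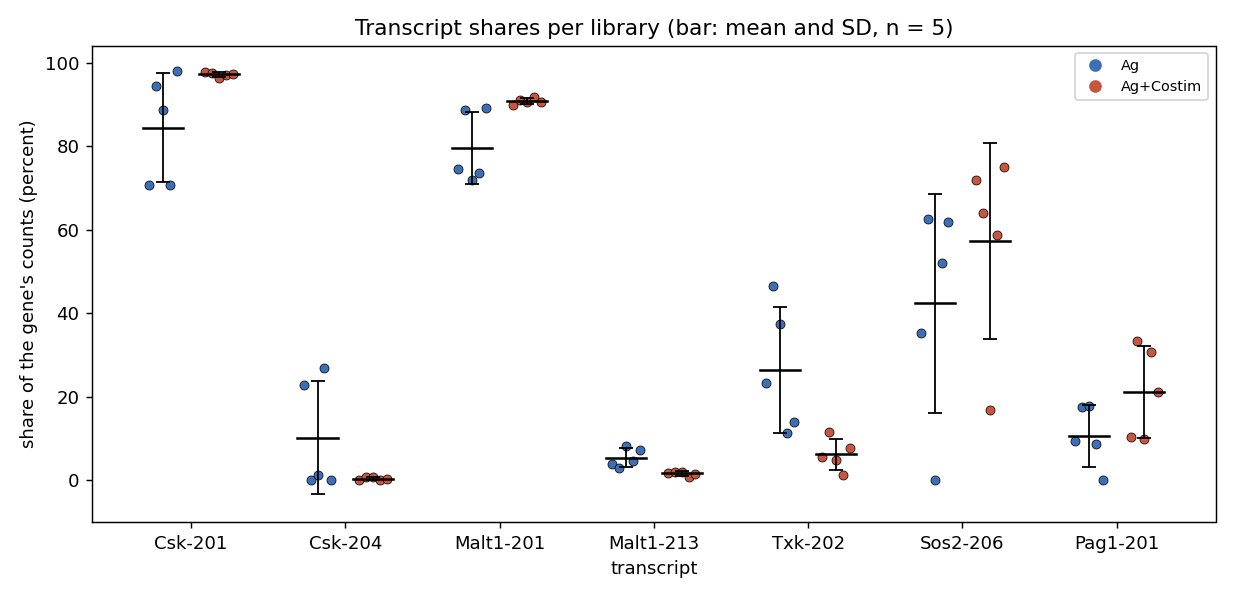
Share of the gene's counts in percent for 7 member transcripts in each library (points; line and bar = mean and SD, n = 5 per group). Csk-204 is above 20% in Ag 1 and Ag 4 alone, Malt1-201 is higher and Malt1-213 lower in Ag+Costim without overlap, and Txk-202, Sos2-206 and Pag1-201 are widely spread.

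Exon inclusion was computed from transcript counts for 47 alternative exons in 27 members. In 0 of the 47 did the two-sided exact permutation test pass a BH-adjusted p of 0.05 over all 18098 exons, of which the lowest adjusted value was 0.522. The groups were without overlap in 3 member exons, all neighbouring exons of Dgkz, against 1.52% of all exons. Of these, 2 were held by 6 transcripts and skipped by 1. The exon at chr2:91944761-91944869 was held by 5 and skipped by 2. Their inclusion was 99.8, 100, 99.4, 99.4 and 100% in Ag and 96.3, 93.6, 98.5, 93.9 and 98.5% in Ag+Costim (two-sided exact permutation test p = 0.0079, the smallest that 5 against 5 libraries allow). The only transcript that skips the first 2 is Dgkz-212, so theirs is the same difference as its share. Inclusion of the exon at chr2:91944761-91944869 was the same but for Ag+Costim 3 (98.528 against 98.530%). The PSI of these exons was 99.8 to 99.9% in both groups.

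The deposited PSI values covered 577 events in members, 532 of them in members at 10 CPM or more. Since there is 1 value per group, no test applies. A difference of 0.1 or more on the scale of 0 to 1 was found in 15 of the 532 events, in 6 genes, against 3.18% of all events of genes at 10 CPM or more. The median size of the difference was 0.00067 in members and 0.0024 over all such events. Core exons made up 3 of the 15, from 424 member core exons (0.708%), against 0.467% of all core exons. Tandem starts and ends made up 12, from 83 in members (14.5%), against 15.9% of theirs. The members' share by type was thus near the background. At the 3' end of Cd247 the PSI of the upstream segment (chr1:165869018-165870249) was 0.820 with antigen alone and 0.498 with costimulation, and that of the next segment (chr1:165870250-165871153) 0.182 and 0.505. The 3' end of Txk had 0.972 and 0.678 at chr5:72695980-72696639 and 0.0283 and 0.322 at the adjoining 2 bases. Rasgrp1 had 0.549 and 0.803 at chr2:117282542-117282676 and 0.277 and 0.108 at chr2:117279994-117282541. The 3' end segments of Pag1 had 0.395 and 0.562 at chr3:9691898-9694129 and 0.605 and 0.438 at chr3:9687479-9691897. At the starts, Cbl had 0.188 and 0.0115 at chr9:44233997-44234049 and 0.705 and 0.891 at chr9:44233985-44233989, and Fyn had 0.708 and 0.835 at chr10:39369798-39369802 and 0.292 and 0.165 at chr10:39369803-39370190.

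The core exons past 0.1 were upstream exons of Fyn and 1 exon of Cbl. The Fyn exons chr10:39395005-39395044 and chr10:39455066-39455135 had PSI values of 0.877 and 0.986 with antigen alone against 0.710 and 0.822 with costimulation. For the latter exon, inclusion from the transcript counts was 97.0 ± 1.43% in Ag and 96.0 ± 1.19% in Ag+Costim, and the groups overlapped (n = 5 per group, two-sided exact permutation test p = 0.278). The Cbl exon (chr9:44144725-44144835, minus strand, 111 bases) went from a PSI of 0.636 with antigen alone to 0.900 with costimulation, the largest difference of a member core exon. Its coding part in GENCODE M21 transcript Cbl-206, 92 bases (chr9:44144744-44144835), is shown because it ends the reading frame there, with the stop codon in capitals.
Cbl alternative exon, coding part: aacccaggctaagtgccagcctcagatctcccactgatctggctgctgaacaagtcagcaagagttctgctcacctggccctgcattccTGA
Cbl-206 was at 0 counts in 9 of the 10 libraries and took 0.54% of Cbl counts in Ag+Costim 3. The exon lies downstream of a 3' end segment of Cbl (chr9:44149262-44151422). A share of all Cbl counts and the PSI of this exon are unlike measures, so they were not compared. The number of reads behind this PSI was not examined.

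A wider list of 65 genes of the same pathway, also chosen with earlier results of these data known, was counted beside the members. All 65 were tested and 0 passed. An unadjusted p under 0.05 was found in 15 (14 of them higher in Ag+Costim), against 23.1% of genes at 10 CPM or more (20.2% higher). DESeq2 called 6, 5 of them higher in Ag+Costim, and the weighted voom fit 39, 30 of them higher. Over all genes the shares were the 12.5% and 52.2% given above, with 778 of 49567 and 6254 of 24262 genes higher. In 8 genes the groups were without overlap, all higher in Ag+Costim, against 11.3% of genes at 10 CPM or more, and the median log2 fold change of the list was 0.22 beside 0.24 for genes at 10 CPM or more. Among the 8 were Wipf1, the partner that stabilises the WAS protein, Chuk and Traf6 of NF-kB signalling, Ppp3ca of calcineurin, the small GTPases Nras and Rap1a, and the lipid phosphatase Inpp5d. Wipf1 was at 109, 89.7, 88.1, 129 and 78.7 CPM in Ag and at 143, 162, 149.5, 154 and 152 CPM in Ag+Costim (log2 fold change 0.62, BH-adjusted p = 0.169 in edgeR). Traf6 had the largest log2 fold change of the 8, 0.65, from 29.5 ± 2.81 to 46.1 ± 4.58 CPM (mean ± SD, n = 5 each). With total counts only Nras of the 8 was without overlap. Trac, the constant region of the receptor alpha chain, was at 1013 ± 242 CPM in Ag and at 903 ± 43.3 CPM in Ag+Costim (mean ± SD, n = 5 each) and overlapped, as the other receptor chains did.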

How the data were processed

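Poly(A) RNA libraries had been made with SMART-Seq v4 and Nextera XT kits. The authors aligned reads to mm10 with HISAT2 (2.1.0 per the labels), used SAMtools (1.9) for sorting and StringTie (2.1.0) for quantification. The deposited gene and transcript tables hold estimated counts, also called expected counts, as whole numbers with no normalization. All 55536 gene identifiers were those of GENCODE M21, and 26345 other entries (0.0603% of counts) were left out. The authors ran Whippet on the reads, and the deposited table holds PSI as a fraction, 1 pooled value per group. Its columns of the authors' own comparison and of event properties were not used.

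Genes were tested with edgeR 4.0.16 (quasi-likelihood, filterByExpr by group, TMM factors, robust) in R 4.3.3, 5 Ag+Costim against 5 Ag libraries, with p-values adjusted by Benjamini-Hochberg (BH) over 24262 genes and a threshold of 0.05. SE is that of the log2 fold change. Transcript usage was tested with edgeR's diffSpliceDGE (gene-level Simes p). Exon inclusion is the counts of transcripts that hold an exon over those that hold or span it, for exons with at least 20 counts in each library. Its test was the exact two-sided permutation of group labels (252 assignments). Genes named with each library's value were 9 members fixed by symbol, members without overlap between the groups and the 6 with the lowest p, and Plcg1, Dgka and Ubash3b were added after their values were seen. DESeq2 1.42.0 and limma 3.58.1 were run beside edgeR. Scripts were tested on simulated data. Estimated counts derive from coverage, so totals are not numbers of reads. Strand use in counting is not given in the sources used here, so overlapping antisense genes could share counts. The members and lists were chosen with earlier results of these data known.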

Additional observations from a re-analysis of the deposited data

Results flagged for a closer look

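Among 66 sets of 5 libraries examined (levels of named members, transcript shares and exon inclusion in each group), 1 held a library far from the other 4, where chance alone is expected to mark about 1 in 20. The share of Txk-203, a protein-coding transcript of the kinase Txk, was 39.2% of Txk counts in Ag 5 and 0% in the other 4 Ag libraries. In Ag+Costim the shares were 0, 0, 14.2, 67.2 and 24.6%.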

How the results depend on the processing

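Of the 38 members, 0 passed the edgeR test under TMM, and 0 passed under each of the other 3 scalings, with no filter, with each library left out in turn (0 to 0) and with the replicate block. DESeq2 called 1, weighted voom 18 and the fit without Ag 2 and Ag 5 15. The count without overlap was 5, and 2 under DESeq2 size factors, 0 under total counts or upper quartile factors, 10 with no filter, 10 without Ag 1 and Ag 4, 13 without Ag 2 and Ag 5, and 5 to 7 with 1 library left out. Among genes at 10 CPM or more the share higher without overlap was 11.3%, and 7.31%, 7.26%, 3.72%, 25.6%, 17.7% and 61.1% under the first 6 of these alternatives.

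Signs of small log2 fold changes depended on the scaling and on single libraries. That of Cd3e was 0.13 with no filter and 0.090 without Ag 1 and Ag 4. Cd8a had 0.13 with no filter and 0.024 without either pair of Ag libraries (Ag 1 and Ag 4, or Ag 2 and Ag 5). Cd8b1 had 0.16 with no filter, 0.22 without Ag 2 and Ag 5, and -0.24 to 0.011 with 1 library left out. Fyb had 0.18 with no filter, 0.23 without Ag 1 and Ag 4, and -0.21 to 0.040 with 1 library left out. Lck had -0.092 with total counts and -0.065 with upper quartile factors. Lat had -0.011 with DESeq2 size factors, -0.12 with total counts, -0.11 with upper quartile factors, -0.0057 in DESeq2 and -0.018 to 0.29 with 1 library left out. Malt1 had -0.053 with total counts. The other 8 named genes kept their sign in every alternative, and beyond these scalings the cause was not tested.

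The usage call of Csk was absent (0 members called) with limma, with a minimum of 50 counts in 5 libraries, under the replicate block and without Ag 1 and Ag 4. Without Ag 2 and Ag 5 there were 2 members called, Csk and Txk, and 0 to 1 with 1 library left out. The difference in Fyn 7A inclusion was -0.60 to 5.26 points and that of 7B -1.13 to 1.57 points with 1 library left out. No exon passed under any alternative run (0 to 0 with 1 library left out). Exons without overlap numbered 3 to 4 with 1 library left out and 0 of 30 with protein-coding transcripts only. PSI events past the threshold were 15 at a difference of 0.1, 25 at 0.05 and 6 at 0.2.

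Deviations of libraries of the same number correlated at 0.25, 0.13, -0.10, -0.30 and 0.12 for numbers 1 to 5. The labels tie these libraries by number alone, and such correlations cannot tell whether they were paired. With the replicate block 0 members passed in edgeR, 3 had an unadjusted p under 0.05, and the log2 fold change of Was was 0.68, of Vav1 0.36, of Themis 0.40 and of Ubash3a 0.41. The paired difference was 1.99 points for Fyn 7A and 0.32 points for 7B, and with 5 pairs the exact sign-flip test cannot go below 0.0625. Ag 3 had the fewest estimated counts, 59.6 M, yet the most genes with a count, 51778. The part of depth in its levels was not tested. The PSI values carry no replicate error.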
